A study of Mus musculus with 8 samples.

Results

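The microRNAs miR-103 (mmu-mir-103) and miR-107 (mmu-mir-107) were followed through both probe tables of a mouse array study, by taking every probe row whose name reduces to one of these stems once the species prefix, arm, copy number and form suffix are removed. The rule found 2 of the 339 stems on the arrays. They were read by 3 of the 521 mature probe rows and 3 of the 300 precursor probe rows, for miR-103-1, miR-103-2 and miR-107 in each table. miRNA levels were measured in Lin-cKit+Sca1+ (LSK) bone marrow cells, a sorted fraction rich in blood stem cells and their earliest progeny, with 1 array per sample. The Ctrl group was 4 samples from Tsc1f/f, Mx1-Cre- mice and the Tsc1 cKO group 4 from Tsc1f/f, Mx1-Cre+ littermates, all C57BL/6 females 10 weeks old. Both groups received the same pIpC, in 7 intraperitoneal injections of 400 µg, with the marrow collected 10 days later. pIpC switches on the interferon-inducible Mx1 promoter, which acts in many cell types besides blood, and the controls were exposed to pIpC as well but carried no Cre. Loss of Tsc1 releases mTORC1, a kinase complex that drives growth. The design text also speaks of conditional Raptor alleles, but the genotype of each sample gives only Tsc1, as used here. The design text calls the samples of a group biological replicates. Each sample is called a mouse below, though whether it came from 1 mouse or from a pool was not checked.

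miRNAs are cut from a hairpin precursor by the nuclease Dicer, and the short mature strand then guides repression of messages that match its seed, bases 2 to 8. miR-103 and miR-107 are known to repress the message of Dicer itself in human cells, and in mice they are known as regulators of insulin sensitivity. Their genes lie in introns of the pantothenate kinase genes, whose enzymes start the synthesis of coenzyme A. The series is about miRNA biogenesis under mTORC1, so both the mature strand and its precursor bear on the question. Dicer1 itself, the pantothenate kinases and the deletion of Tsc1 were not analysed here, since the probes read miRNAs.

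The mature strands are shown because both copies of miR-103 make the same one, and miR-107 differs from it in a single base. Sequences are from RefSeq (GRCm38.p6), which matched all 3 hairpins. The 3p strands, 5′ to 3′ with the seed in capitals, read:
miR-103-3p: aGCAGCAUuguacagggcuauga
miR-107-3p: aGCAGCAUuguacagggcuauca
The strands were identical at 22 of 23 bases, and the one difference, counted from the 5′ end of miR-103-3p, was G22C, outside the seed. No other entry had this seed among the 1674 distinct mouse mature sequences of the RefSeq table. The opposite arms, with bases 2 to 8 in capitals, differed more between the genes:
miR-103-1-5p: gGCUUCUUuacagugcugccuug
miR-103-2-5p: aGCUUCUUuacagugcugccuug
miR-107-5p: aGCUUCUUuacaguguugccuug
Counted from the 5′ end of miR-103-2-5p, the miR-103-1 arm carried A1G and the miR-107 arm C16U. The mature rows do not name an arm, so which arm a probe was made for is not known here, and with so few differences signals of the 3 probes may not be fully separate.

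The hairpins are shown because the precursor probes are meant to read them and they differ where the mature strands do not. The 3p strand is in capitals:
Mir103-1: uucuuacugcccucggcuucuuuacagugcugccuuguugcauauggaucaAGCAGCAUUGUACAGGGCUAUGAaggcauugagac
Mir103-2: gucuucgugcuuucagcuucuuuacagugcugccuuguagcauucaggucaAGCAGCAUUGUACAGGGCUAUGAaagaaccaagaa
Mir107: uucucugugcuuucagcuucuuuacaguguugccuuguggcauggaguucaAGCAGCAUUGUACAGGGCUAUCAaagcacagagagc
Mir103-1 lies at chr11:35782396-35782481 on the plus strand, within the span of Pank3. Mir103-2 lies at chr2:131288052-131288137 on the plus strand, within Pank2, and Mir107 at chr19:34820687-34820773 on the minus strand, within Pank1. Each hairpin is on the strand of its host gene. Compared base by base without gaps, the Mir103-1 and Mir103-2 hairpins differed at 17 of 86 bases.

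Intensities carry a shared low level on each array, taken here as its background (the mode of its log2 values), which lay between 24165 and 33206. Values below are log2(intensity + 1), and bright means a mean over 1 log2 unit above that background. That held for 94 of 433 mature and 34 of 274 precursor names. In each group samples 1 and 2 gave more signal than the other 2, so values within each of these sets are given too. Tsc1 cKO 4 stood apart, with 74 bright mature names against 93 to 112 on the other arrays. The labels give scanner 4001B for Tsc1 cKO 3, 4002B for Tsc1 cKO 4 and 4000B for the other 6 samples. Of 14 probes for HSPC markers 5 were bright, and of 32 for non-haematopoietic markers 2 were. No erythroid or stromal and endothelial marker probe was bright (of 3 and 9), while 2 of 3 myeloid and 5 of 7 lymphoid ones were, miR-223 and miR-150 among them. The mean level of the HSPC list ran from 0.59 to 1.46 log2 units above background in Ctrl and from -0.04 to 0.84 in Tsc1 cKO, and that of the myeloid list from 2.15 to 2.74 and from 1.49 to 2.65. For the lymphoid list these were 1.41 to 2.29 and 1.18 to 1.77. The erythroid list ran from -0.40 to 0.28 in Ctrl and, higher, from 0.08 to 0.73 in Tsc1 cKO. Of its 3 probes miR-486 had a log2 fold change of 1.35 (SE 0.57, adjusted p = 0.902 by limma), miR-144 0.03 and miR-451 -0.28. Of the 14 HSPC probes, which read 10 stems, 13 had a log2 fold change below 0 and 1 above. The share below 0 was 64.9% over all mature names and 80.9% over the bright ones. The median of the 14 was -0.69, beside -0.04 over all mature names and -0.24 over the bright ones. By limma 0 of the 14 were past adjusted p 0.05. At unadjusted p under 0.05 by limma were 4 of the 14, miR-125b-1 and miR-125b-2 among them, beside 4.39% of all mature names. The part of these marker lists in the results was not tested. In such bulk samples fewer cells of a type and less RNA per cell cannot be told apart.

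All 3 mature probes of miR-103 and miR-107 were bright on every array, and none differed between the groups beyond the spread between mice. miR-103-1, the Pank3 copy, read 17.13, 17.98, 17.39 and 16.62 in Ctrl 1 to 4. In Tsc1 cKO 1 to 4 it read 17.90, 18.15, 17.42 and 16.44. The highest and the lowest value were both from Tsc1 cKO mice, and the groups overlapped. Its mean was 17.28 ± 0.56 in Ctrl and 17.48 ± 0.76 in Tsc1 cKO (SD, n = 4 each), a log2 fold change of 0.20 (SE 0.40, 95% interval -0.69 to 1.09). In limma, fitted over all mature names with Benjamini-Hochberg adjustment, adjusted p was 1.00 for each of the 3 probes.

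miR-103-2, the Pank2 copy, read 17.42, 17.58, 17.46 and 16.62 in Ctrl 1 to 4, and 17.62, 18.36, 17.14 and 16.01 in Tsc1 cKO 1 to 4. Tsc1 cKO mice again held both ends of the range, with the same mice, 2 and 4, as for miR-103-1. The means were 17.27 ± 0.44 and 17.28 ± 0.99 (SD, n = 4 each), and the log2 fold change was 0.01 (SE 0.45, 95% interval -0.99 to 1.01). As a fold the interval runs from 0.504 to 2.02. It holds changes that the values of this probe leave possible. It is not adjusted for the number of names and is not a limit of detection.

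miR-107 read 17.88, 18.62, 17.92 and 16.96 in Ctrl 1 to 4, and 18.31, 18.67, 17.31 and 16.12 in Tsc1 cKO 1 to 4. In this probe too sample 2 was the highest and sample 4 the lowest of its group, in both genotypes. Its mean was 17.85 ± 0.68 in Ctrl and 17.60 ± 1.14 in Tsc1 cKO (SD, n = 4 each). The log2 fold change was -0.24 (SE 0.54, 95% interval -1.45 to 0.96). Its sign turned in 6 of 22 alternative settings, some of which cannot change an estimate.

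**Figure D1:**
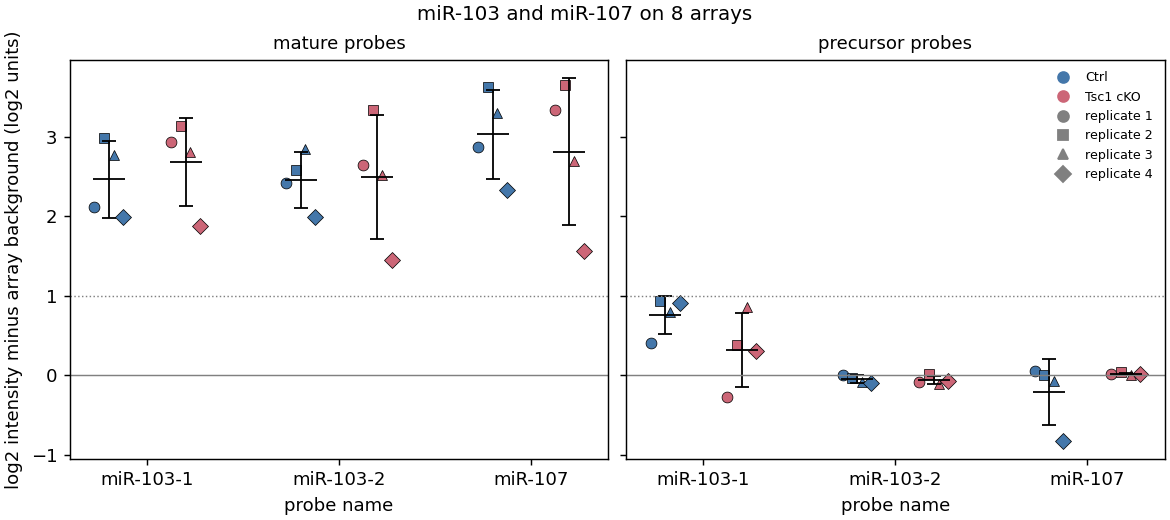
Log2 intensity minus the array's background (y axis, log2 units) for the mature (left) and precursor (right) probes of miR-103-1, miR-103-2 and miR-107 (x axis). Points are single arrays, coloured by group and shaped by replicate number, bars are mean ± SD, the solid line is background and the dotted line 1 log2 unit above it. Mature probes lie above the dotted line on all 8 arrays, with sample 4 lowest in each group, and all precursor probes lie below it.

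Above background, the group means of the mature probes were 2.46 ± 0.48 in Ctrl and 2.69 ± 0.55 in Tsc1 cKO for miR-103-1, 2.45 ± 0.36 and 2.49 ± 0.78 for miR-103-2, and 3.03 ± 0.56 and 2.81 ± 0.92 for miR-107 (log2 units, SD, n = 4 each). These are 5.51-fold and 6.43-fold over background for miR-103-1, for example. The 0 of 3 mature probes past the threshold stand beside 0 of all 433 names (0%), with 19 names at unadjusted p under 0.05 (4.39%). For 0 of the 3 did the groups separate without overlap, against 0.924% of all mature names. One of the 3, miR-107, had a fold change below 0, beside 64.9% of all mature names and 80.9% of the bright ones, and the 2 miR-103 probes had one above 0, beside 35.1%. The median log2 fold change was -0.04 over all mature names and -0.24 over the bright names. After each array was set against the mean of its bright names, the 3 fold changes were 0.50 for miR-103-1, 0.31 for miR-103-2 and 0.05 for miR-107, a setting chosen after the data were seen (adjusted p = 0.634, 0.634 and 0.917 by limma).

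The sets of brighter and dimmer arrays differed in direction. In samples 1 and 2 the log2 fold changes were 0.47, 0.49 and 0.24 for miR-103-1, miR-103-2 and miR-107, and in samples 3 and 4 they were -0.07, -0.46 and -0.72. Each set holds 2 mice of a group, and the difference between the sets was not tested. Without Tsc1 cKO 4 the fold changes were 0.55, 0.44 and 0.25, all above 0. In the 6 samples labelled with scanner 4000B they were 0.75, 0.72 and 0.65. That set leaves out both dim Tsc1 cKO arrays and keeps both dim Ctrl arrays, and the labels 4001B and 4002B, which run on by 1, may be a fill error and not other scanners. Relative to the median of its own array, in place of the deposited level, the differences were 0.24, 0.05 and -0.20 (2-sided exact permutation p = 0.543, 0.914 and 0.771, adjusted p = 0.914 for each over 6 such measures).

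**Figure D2:**
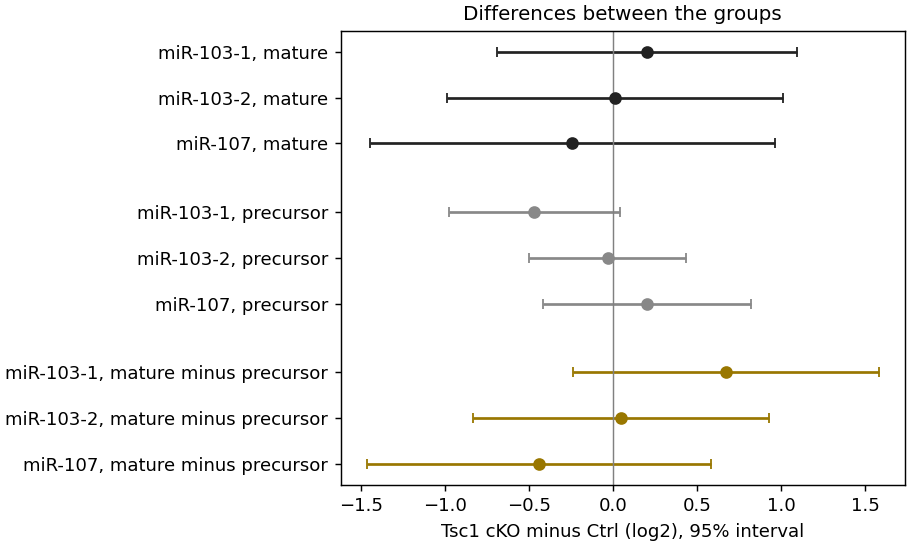
Difference between the group means, Tsc1 cKO minus Ctrl (x axis, log2 units), for the mature probes, the precursor probes and the mature minus precursor value of miR-103-1, miR-103-2 and miR-107 (y axis). Points are limma estimates and bars their 95% intervals, from 4 arrays a group. All 9 intervals include 0, and that of the miR-103-1 precursor, -0.98 to 0.04, reaches least far past it.

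The precursors of the 3 genes gave little signal. The miR-103-2 precursor lay at background throughout, at 0.01, -0.03, -0.08 and -0.09 log2 units relative to it in Ctrl 1 to 4. In Tsc1 cKO 1 to 4 the values were -0.09, 0.02, -0.10 and -0.06. Its log2 fold change of -0.03 (SE 0.21) therefore says little on this hairpin. The miR-107 precursor was also at background on 7 arrays, between -0.06 and 0.06, and at -0.82 in Ctrl 4. Its log2 fold change of 0.20 (SE 0.28) was -0.07 without Ctrl 4.

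The hairpin of the Pank3 copy was the only one of the 3 with values clear of background on most arrays. The miR-103-1 precursor read 0.41, 0.93, 0.79 and 0.91 log2 units above background in Ctrl 1 to 4, and -0.28, 0.38, 0.85 and 0.30 in Tsc1 cKO 1 to 4. Tsc1 cKO 3 lay among the Ctrl mice and the other 3 were lower than every Ctrl mouse. The group means were 0.76 ± 0.24 and 0.32 ± 0.46 (SD, n = 4 each), under the limit of 1 for a bright probe. On the intensity scale the means were 15.58 ± 0.24 and 15.11 ± 0.39. The log2 fold change was -0.47 (SE 0.23, 95% interval -0.98 to 0.04), which did not pass limma (unadjusted p = 0.0680, adjusted p = 0.999), and it was the 10th smallest p of 274 names. It was -0.63 in samples 1 and 2 and -0.31 in samples 3 and 4. Its sign held in all 19 alternatives, some of which cannot change an estimate, with adjusted p between 0.753 and 0.999.

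None of the 3 precursors passed, as was so for all 274 names (0%, with 2.55% at unadjusted p under 0.05). No precursor of the 3 separated the groups without overlap, where 1.09% of names did. Precursors of 2 of the 3 had a fold change below 0, beside 59.1% of all precursor names, and 1 had one above 0, beside 40.9%.

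The mature minus precursor value on each array asks whether both forms moved together, which needs a precursor signal above background. For miR-103-1 it was 1.70, 2.05, 1.97 and 1.08 in Ctrl 1 to 4, and 3.20, 2.75, 1.95 and 1.58 in Tsc1 cKO 1 to 4. Tsc1 cKO 1 and 2 lay above all Ctrl mice, while Tsc1 cKO 3 and 4 lay among them. The miR-103-1 precursor was not bright either, at a mean of 0.76 log2 units above background in Ctrl and 0.32 in Tsc1 cKO. In Tsc1 cKO 1, which had the largest value, it lay below background (-0.28). The value of 3.20 there cannot say whether both forms moved together. The difference between the groups was 0.67 (SE 0.39, 95% interval -0.24 to 1.58), which did not pass limma over the 264 matched names (adjusted p = 0.652). It was 1.10 in samples 1 and 2 and 0.24 in samples 3 and 4. For miR-103-2 the difference was 0.05 (SE 0.38, adjusted p = 0.965) and for miR-107 it was -0.44 (SE 0.44, adjusted p = 0.888). The precursors of miR-103-2 and miR-107 lay at background on most or all arrays. For these the value mainly gives the mature signal over background, and cannot say whether both forms moved together. For miR-107 the Tsc1 cKO values were 3.32, 3.61, 2.68 and 1.55, against 2.81, 3.61, 3.36 and 3.14 in Ctrl. Its group difference is the mature change of -0.24 less the precursor change of 0.20, which turned to -0.07 without Ctrl 4. Of all matched names 0 passed (0%), as was so for the 3, and 6.82% had an unadjusted p under 0.05. The groups separated without overlap for 4.92% of names, with Tsc1 cKO higher for 1.89%, and for 0 of the 3. Differences above 0 were found for 2 of the 3, beside 47% of all matched names, and below 0 for 1, beside 53%.

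Both copies of miR-103 make the same 3p strand but differ in the 5p arm, and the arm their mature probes read is not known here. miR-103-1 minus miR-103-2 was -0.30, 0.39, -0.07 and 0.00 in Ctrl 1 to 4, and 0.28, -0.21, 0.28 and 0.43 in Tsc1 cKO 1 to 4. It took both signs in both groups. Over all 8 arrays the SD was 0.28 log2 units, and the change between groups was 0.19 (2-sided exact permutation p = 0.400).

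The gap between the stems, miR-107 minus the mean of the miR-103 copies, was 0.61, 0.84, 0.50 and 0.34 in Ctrl 1 to 4. In Tsc1 cKO 1 to 4 it was 0.55, 0.41, 0.03 and -0.10. Tsc1 cKO 3 and 4 lay below all Ctrl mice and Tsc1 cKO 1 and 2 among them. The mean was 0.57 ± 0.21 in Ctrl and 0.22 ± 0.31 in Tsc1 cKO (SD, n = 4 each), a change of -0.35 with a 2-sided exact permutation p of 0.171 (adjusted p = 0.229 over 4 pairs). Only the change of such a gap is read here, as probes can differ in brightness for the same amount of RNA. It was -0.24 in samples 1 and 2 and -0.46 in samples 3 and 4, and -0.09 in the samples labelled 4000B. After quantile normalization the groups differed by -0.34 with exact p = 0.0286, the smallest that 4 against 4 mice allow (adjusted p = 0.114).

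Among the precursors, the gap of miR-103-1 to miR-103-2 changed by -0.43 (exact permutation p = 0.171, adjusted p = 0.229). It was 0.40, 0.96, 0.87 and 1.01 in Ctrl 1 to 4, and -0.19, 0.36, 0.96 and 0.37 in Tsc1 cKO 1 to 4. The gap of miR-107 to miR-103 changed by 0.45 (exact permutation p = 0.0857, adjusted p = 0.229), with Ctrl 4 at -1.23 the lowest value, and by 0.23 without Ctrl 4. None of the 4 gaps passed.

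**Figure D3:**
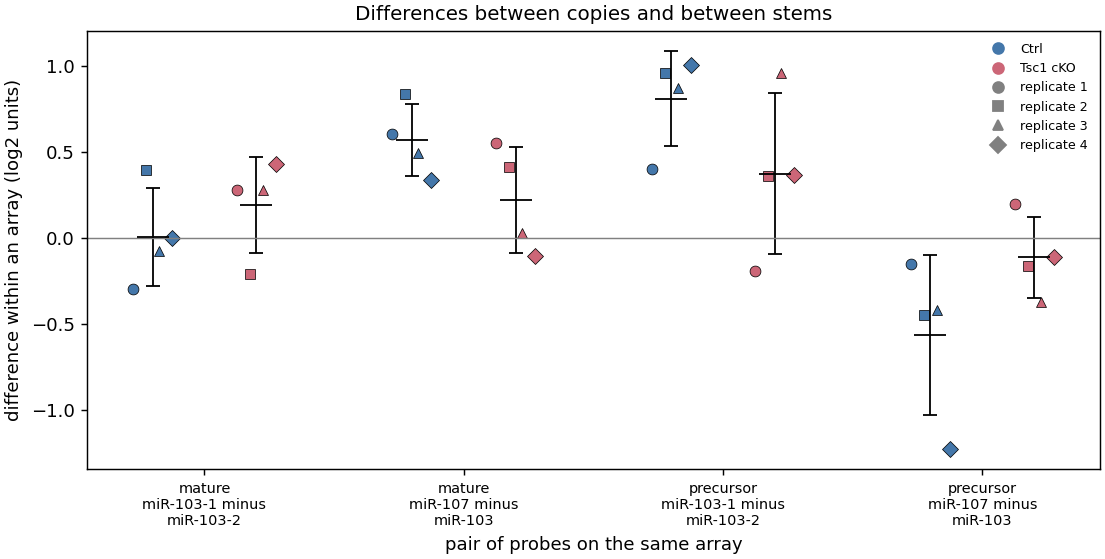
Difference between probes on the same array (y axis, log2 units) for the copies of miR-103 and for miR-107 against the mean of those copies, in the mature and precursor tables (x axis). Points are single arrays and bars mean ± SD of 4. The mature miR-107 gap was 0.57 in Ctrl and 0.22 in Tsc1 cKO, and the groups overlap for all 4 gaps.

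Closest to the mature miR-103 and miR-107 profile over the 8 arrays, among bright names outside it, were miR-155, miR-24-1-3p and miR-30c-2. The measure was the root mean square difference between profiles, each set to its own mean, and it was 0.13, 0.15 and 0.16 log2 units. The member probes themselves lay 0.14 (miR-103-2), 0.18 (miR-103-1) and 0.19 (miR-107) from their common profile, which they help to form. These profiles share each array's brightness. miR-155, an inflammation-responsive miRNA, read 1.79, 2.71, 2.31 and 1.44 log2 units above background in Ctrl 1 to 4 and 2.46, 2.70, 1.96 and 1.24 in Tsc1 cKO 1 to 4. It too was highest in sample 2 and lowest in sample 4 of each group. As it was picked for its likeness in profile, this order is no separate observation.

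miR-103 and miR-107 belong to a wider group, with miR-15 and miR-16, whose 5′ ends share the letters AGCAGC. The mature strands are shown to make the offset visible, with AGCAGC in capitals:
miR-103-3p: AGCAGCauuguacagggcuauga
miR-107-3p: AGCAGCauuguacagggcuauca
miR-15a-5p: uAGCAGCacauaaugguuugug
miR-15b-5p: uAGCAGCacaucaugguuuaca
miR-16-5p: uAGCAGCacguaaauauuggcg
miR-195a-5p: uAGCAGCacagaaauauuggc
miR-322-5p: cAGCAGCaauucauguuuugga
miR-497a-5p: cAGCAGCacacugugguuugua
miR-503-5p: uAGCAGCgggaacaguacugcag
The letters start at base 1 in miR-103 and miR-107 and at base 2 in the others, so the seeds are shifted by 1 base. Of the 1674 distinct mature sequences 13 (0.777%) hold them at base 1 or 2, on the strand of the miRNA. miR-15 and miR-16 are known to repress cyclins and the survival gene Bcl2.

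None of the other members of this group passed either. Of their 9 mature names, among them a probe for the 3p arm of miR-322 that lacks these letters, 8 had a fold change below 0. The share below 0 was 64.9% over all mature names and 80.9% over all bright ones. The median of the 9 was -0.11, beside -0.04 over all mature names and -0.24 over all bright ones. The 6 bright names of this group ran from miR-15a (log2 fold change -0.47, SE 0.43) to miR-195 (0.12, SE 0.46). Between them lay miR-15b (-0.30, SE 0.29), miR-16-2 (-0.14, SE 0.43), miR-497 (-0.11, SE 0.23) and miR-16-1 (-0.03, SE 0.51). miR-15a and miR-15b read 0.02 and 0.42 log2 units above background in Tsc1 cKO 4, and at least 0.78 on every other array. As for miR-103 and miR-107, Tsc1 cKO 4 gave the lowest value of miR-16-1, at 0.84 against 1.87 to 3.15 elsewhere. Of their 6 precursor names 0 were bright and 5 had a fold change below 0, beside 59.1% of all precursor names. Their median was -0.07 beside -0.03 over all precursor names.

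**Figure D4:**
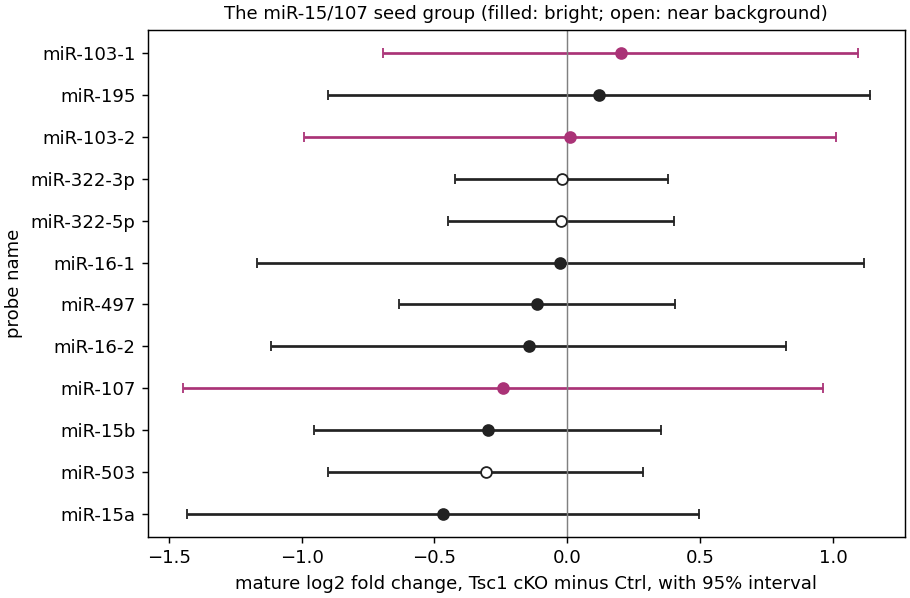
Mature log2 fold change, Tsc1 cKO minus Ctrl (x axis), with its 95% interval for each probe name of the group of miR-15 and miR-107 (y axis), from 4 arrays a group. Coloured points are miR-103 and miR-107, filled points bright probes and open points probes near background. The values run from -0.47 (miR-15a) to 0.20 (miR-103-1), and every interval includes 0.

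The let-7 family is also known to repress the Dicer message. Its 13 mature names, miR-98 included, had a median log2 fold change of -0.83, with 0 past the threshold and 12 below 0. At unadjusted p under 0.05 by limma were 5, among them let-7d*-3p, a probe for the opposite arm. Over all mature names the median was -0.04, with 4.39% at unadjusted p under 0.05 and 64.9% below 0. Over all bright names the median was -0.24, with 80.9% below 0. Among the bright let-7 names the lowest was let-7c-2 (-1.03, SE 0.41, adjusted p = 0.902) and the highest let-7i (-0.43, SE 0.27). Whether these miRNAs differ from let-7 in their change was not tested.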

How the data were processed

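Both tables hold intensities on a linear scale, deposited as normalized signal per the file headers, whose comment is a template text. The sources used here do not give the scaling, the background treatment or the filters. Per the labels' protocols, 5 µg of TRIzol-extracted RNA per sample was biotin-labelled with a random octamer primer and read with streptavidin-Alexa647 on a 1-colour array. The series' value table equals the mature table in all 4168 cells and added nothing.

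Values were transformed to log2(value + 1), and rows of the same name were averaged. Each table was fitted whole with limma 3.58.1 in R 4.3.3 (lmFit, then eBayes, without a block), with p-values adjusted by Benjamini-Hochberg at 0.05. Differences within arrays got an exact permutation test, 2-sided, with 70 assignments and a smallest p of 0.0286. The number of arrays limits the precision. Methods were tested on simulated data. The named probes are all rows of the 2 stems, the extremes of each list, the bright members of the group of miR-15 and miR-107 and the 3 nearest profiles. The members and lists were chosen with earlier results of these data known. Python 3.11.15 and matplotlib 3.10.9 drew the figures.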

Additional observations from a re-analysis of the deposited data

Results flagged for a closer look

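Of 50 sets of 4 values examined for miR-103 and miR-107, 3 had 1 mouse far from the other 3, with its gap to the nearest of them past Dixon's 95% critical share of the range. Chance gives about 1 in 20, and the sets overlap. All 3 were Ctrl 4. The mature miR-103-2 probe read 16.62 there, against 17.42 to 17.58 in the other Ctrl mice. The miR-107 precursor read -0.82 log2 units relative to background, against -0.06 to 0.06, and -0.83 relative to the array median, against -0.08 to 0.05. Without Ctrl 4 the log2 fold change was -0.21 for mature miR-103-2 and -0.07 for the miR-107 precursor.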

How the results depend on the processing

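No miR-103 or miR-107 probe passed in any alternative. The names past adjusted p 0.05 were 0 in each setting, while those at unadjusted p under 0.05 by limma ran from 8 to 48 for mature (19 reported), 0 to 20 for precursor (7) and 6 to 29 for mature minus precursor values (18). The log2 fold change of the miR-103-1 precursor stayed below 0 in 19 of 19 alternatives (-1.71 to -0.31). Its mature minus precursor value stayed above 0 in 20 of 20 (0.24 to 1.95). The mature gap of miR-107 to miR-103 stayed below 0 in 18 of 18 (-0.46 to -0.09). Some of these settings cannot turn a sign here, as a block over balanced groups or another variance model. After quantile normalization mature miR-103-1 had 0.51, against 0.20 in the main fit (limma unadjusted p = 0.00175, adjusted p = 0.380). No alternative gave this probe a lower p.

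Other signs turned, and the cause was not tested. In samples 1 and 2 alone, mature miR-107 had 0.24, its precursor -0.015, its mature minus precursor value 0.25, and the mature gap between the miR-103 copies -0.013. Relative to the array median there, mature miR-107 had 0.27 and its precursor -0.0092. In samples 3 and 4 alone, mature miR-103-1 had -0.073, mature miR-103-2 -0.46 and its mature minus precursor value -0.43, and relative to the array median these mature probes had -0.013 and -0.40, and the miR-103-2 precursor 0.016. In the samples labelled 4000B, mature miR-107 had 0.65, the miR-103-2 precursor 0.19 and the mature minus precursor value of miR-107 0.23, with 0.48 and 0.013 for the first pair relative to the array median. Quantile normalization gave mature miR-107 0.062, also relative to the median, and centring on bright names, chosen after seeing the data, gave 0.052. Subtracting background gave -0.022 for mature miR-103-2 and -0.12 for the miR-107 precursor.

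Leaving out each mouse in turn gave -0.023 to 0.55 for mature miR-103-1, -0.35 to 0.44 for miR-103-2 and -0.60 to 0.25 for miR-107. The precursors ran from -0.59 to -0.33, -0.13 to 0.051 and -0.067 to 0.35, and mature minus precursor values from 0.39 to 0.93, -0.21 to 0.39 and -0.71 to -0.027. The 4 gaps ran from 0.09 to 0.32 and -0.46 to -0.24 (mature copies, stems), and -0.63 to -0.25 and 0.23 to 0.59 (precursor). Relative to the array median the mature probes ran from 0.09 to 0.50, -0.22 to 0.39 and -0.47 to 0.20, and the precursors from -0.62 to -0.24, -0.030 to 0.013 and 0.022 to 0.31.

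The groups share replicate numbers, but same-numbered mature deviations correlated at 0.101, 0.348, 0.0927 and 0.329, not all above 0.1, so the numbers were not taken to pair the mice. With the replicate block limma called 0 names in each table (48 mature, 15 precursor and 29 mature minus precursor values at unadjusted p under 0.05), and the miR-103-1 precursor kept -0.47 with adjusted p = 0.826. Background subtraction gave no value for the miR-103-2 precursor, at the floor of 1000 on all arrays, and a fit of bright names alone gave none for the 3 precursors. Signal near background limits what precursor probes show.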

Other observations

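Of 11 mature names on a list of other miRNAs known from lipid and glucose metabolism 3 were bright, beside 94 of all 433, from miR-29a (log2 fold change -0.90, SE 0.54) to miR-375 (-0.20, SE 0.20), and 0 passed limma. The median was -0.20 beside -0.04 over all mature names, with 9 names below 0 beside 64.9% of all. The precursor median was -0.25 over 8 names, beside -0.03 over all precursor names. The miR-375 precursor had -0.54 (SE 0.18, adjusted p = 0.999 by limma).

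Among the 34 bright precursor names, the only ones compared, those nearest to the precursor profile of miR-103 and miR-107 were miR-805, miR-705 and miR-331, at 0.15, 0.17 and 0.18 log2 units over 8 arrays. None of the miR-103 and miR-107 precursors that form this profile was bright.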
